A study of Rattus norvegicus with 18 samples.

Results

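The 9 genes Drd1, Drd2, Adora2a, Gpr6, Ppp1r1b, Rgs9, Adcy5, Pde10a and Tac1 are genes of the medium spiny neurons of the striatum, and they were taken by symbol from the 30735 genes of a rat cortex RNA-seq table. All 9 were found, and all 9 are among the 18444 genes that pass the filter on low counts. They were chosen with results of these libraries known, so their values are given as a description, and counts of these genes past a threshold of the fit over all genes are not evidence about them. Adult Sprague Dawley rats had subarachnoid hemorrhage (SAH) made by perforating a vessel from inside, while the sham operation stopped short of the perforation. The sham, SAH 1d (day 1) and SAH 7d (day 7) groups have 6 rats and 6 libraries each, and neither genotype nor any drug separates the groups. The tissue is given as the whole cortex of the injured side in the study's methods and as bilateral cortex in the deposited labels. A replicate is a rat, and libraries are named by group and number, such as sham-3.

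The striatum lies beneath the cortex, and most of its neurons are medium spiny projection neurons that use GABA. Those of the direct pathway carry the dopamine receptor Drd1 and make substance P from Tac1, and those of the indirect pathway carry Drd2, Adora2a and Gpr6. Both kinds share a strong cAMP pathway with Adcy5, Ppp1r1b (DARPP-32), Pde10a and Rgs9, and the cortex has less of it.

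The DNA before the start of 3 of these genes is shown. Tac1 and Gpr6 had the largest departures from the means of gene and library, in opposite directions, both in SAH 1d-3. The library mean includes Tac1, whose high value lowers the departure of Gpr6 there. Drd1 marks the same direct-pathway neurons as Tac1. The sequences are from RefSeq for the GRCr8 build, which is not the Rnor_6.0 build of the files. They are the 250 bases upstream of the start, 5′ to 3′ on the gene's strand, and capitals mark the motif letters found on either strand. The windows are chr4:36645333-36645582 (+) for Tac1, chr17:10546354-10546603 (+) for Drd1 and chr20:46075252-46075501 (-) for Gpr6.
Tac1: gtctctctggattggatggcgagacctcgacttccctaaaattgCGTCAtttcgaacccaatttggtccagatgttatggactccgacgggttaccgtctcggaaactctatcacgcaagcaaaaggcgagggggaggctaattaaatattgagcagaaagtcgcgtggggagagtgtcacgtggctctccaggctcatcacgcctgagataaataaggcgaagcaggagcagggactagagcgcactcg
Drd1: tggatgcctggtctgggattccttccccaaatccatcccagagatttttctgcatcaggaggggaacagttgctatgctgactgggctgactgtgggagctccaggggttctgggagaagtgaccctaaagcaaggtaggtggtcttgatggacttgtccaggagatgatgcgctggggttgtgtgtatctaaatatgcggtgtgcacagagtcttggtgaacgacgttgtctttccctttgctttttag
Gpr6: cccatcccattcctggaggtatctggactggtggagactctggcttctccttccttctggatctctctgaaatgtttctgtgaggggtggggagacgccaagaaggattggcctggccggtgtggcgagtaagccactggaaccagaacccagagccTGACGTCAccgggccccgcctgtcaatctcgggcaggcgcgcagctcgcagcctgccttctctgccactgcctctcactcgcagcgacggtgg
The motifs searched on both strands were the cAMP response element TGACGTCA, its core TGACG, the AP-1 site TGANTCA and the GC box GGGCGG. The core overlaps the full element. Tac1 holds 1 core, which begins 206 bases before the start. Gpr6 holds 1 full element, 93 bases before the start, and Drd1 holds none of the 4 motifs. Among 33469 windows of the same length, 1.59% hold the full element, 18.2% the core, 6.34% the AP-1 site and 30.5% the GC box. Windows were found for 7 of the 9 genes and not for Ppp1r1b and Adora2a. Of these 7, 1 holds the full element, 3 the core, 0 the AP-1 site and 4 the GC box. A match is a description of the letters and not of binding.

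Every library held cortical tissue by its markers. The 11 cortical projection neuron genes summed to between 1510 and 2393 CPM (counts scaled to 1e+06 per library) in sham, 1227 and 1733 in SAH 1d, and 760.5 and 2095 in SAH 7d. The total counts per library ranged from 27.3 to 38.3 in units of 1e+06. SAH 1d-3 and SAH 7d-5 stood apart from their groups, with the highest summed level of 9 injury response genes in each group, 6389 and 15600 CPM. In SAH 7d-5 all 7 general neuron genes were at their lowest of the 18 libraries. The part of injury and of neuron content in the striatal gene levels of these libraries was not tested.

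Compared per length, the level of the 9 genes in FPKM (fragments per kilobase per 1e+06 mapped reads) spanned a wide range, from Ppp1r1b to Gpr6. Ppp1r1b was the highest, with a mean of 225.2 ± 90.8 FPKM in sham, 124.2 ± 63.2 in SAH 1d and 143.1 ± 72.4 in SAH 7d (SD, n = 6 each). Tac1 came next, at 53.2 ± 28.7, 38.1 ± 22.7 and 32.5 ± 21.7 FPKM, and was below Ppp1r1b in 17 of 18 libraries. Adcy5 stood at 37.1 ± 12.5, 22.4 ± 7.59 and 24.5 ± 9.53 FPKM. Then came Rgs9, Drd1 and Adora2a, whose means in sham were 21.1, 16.7 and 20.2 FPKM, followed by Pde10a at 13.2, Drd2 at 12.4 and Gpr6 at 6.78 FPKM. The steps from Ppp1r1b to Tac1, from Adcy5 to Rgs9 and from Drd2 to Gpr6 held in 17, 18 and 17 libraries. Rgs9 exceeded Drd1 in 9 of 18 libraries, and the other steps held in 12 or 13. The order of those neighbours thus changed between libraries, and whether they differ was not tested.

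The dopamine receptors Drd1 (ENSRNOG00000023688), which raises cAMP, and Drd2 (ENSRNOG00000008428), which lowers it, varied severalfold between rats of 1 group. In CPM, Drd1 had a lowest, median and highest value of 9.55, 36.1 and 72.4 in sham, 9.45, 20.8 and 49.5 in SAH 1d, and 4.72, 23.5 and 56.1 in SAH 7d. Drd2 had 6.14, 35.3 and 73.2 CPM in sham, 4.16, 13.5 and 32.3 in SAH 1d, and 2.66, 17.5 and 38.9 in SAH 7d. The groups overlapped for both receptors, since sham-3 lay below the median of each SAH group. For both, sham-1 was the highest of the 18 libraries and SAH 7d-5 the lowest. In these bulk samples, fewer cells of a type and less RNA per cell cannot be told apart.

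The other receptors are Adora2a (ENSRNOG00000001302), the adenosine receptor of the indirect pathway, and Gpr6 (ENSRNOG00000049580), an orphan receptor that raises cAMP. Adora2a had a lowest, median and highest value of 9.85, 54.0 and 113 CPM in sham, 6.37, 18.1 and 36.4 in SAH 1d, and 4.39, 23.1 and 59.0 in SAH 7d. Gpr6 had 5.08, 16.9 and 29.9 CPM in sham, 1.37, 7.11 and 10.7 in SAH 1d, and 1.91, 7.93 and 16.1 in SAH 7d. All 6 SAH 1d libraries lay below the sham median for Adora2a and for Gpr6, while the ranges still overlapped, since sham-3 and sham-4 lay below SAH 1d-1 for both genes.

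Ppp1r1b (ENSRNOG00000028404) encodes an inhibitor of protein phosphatase 1, and Rgs9 a brake on G protein signalling of dopamine receptors. Ppp1r1b had a lowest, median and highest value of 156.9, 427.9 and 695 CPM in sham, 61.2, 231.9 and 360.6 in SAH 1d, and 68.3, 251.3 and 454.5 in SAH 7d. Rgs9 (ENSRNOG00000003800) had 6.56, 52.5 and 109.3 CPM in sham, 4.51, 23.1 and 53.6 in SAH 1d, and 5.05, 23.7 and 60.8 in SAH 7d. Within sham, the highest library was 16.7 times the lowest for Rgs9, the widest of the 9 genes. Its value in sham-3 was close to those of SAH 1d-3 (5.43 CPM), SAH 1d-4 and SAH 7d-5, and below every other library.

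Adcy5, the main adenylyl cyclase of the striatum, and Pde10a, a phosphodiesterase that breaks down cAMP and cGMP there, varied less. Adcy5 had a lowest, median and highest value of 104.4, 187.8 and 314 CPM in sham, 68.3, 107.5 and 165.7 in SAH 1d, and 45.0, 120.9 and 197.4 in SAH 7d. Pde10a had 19.3, 46.0 and 81.7 CPM in sham, 7.20, 19.9 and 36.1 in SAH 1d, and 6.72, 27.3 and 48.1 in SAH 7d. The highest sham library was 3.01 times the lowest for Adcy5, the narrowest range of the 9. For both genes the groups overlapped, with all 6 SAH 1d libraries below the sham median.

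Tac1, the precursor of substance P, was the one gene whose highest SAH 1d library was not SAH 1d-1. Its lowest, median and highest values were 17.8, 54.2 and 106.6 CPM in sham, 10.02, 37.3 and 81.2 in SAH 1d, and 5.96, 34.8 and 77.8 in SAH 7d. The 81.2 CPM were in SAH 1d-3, a library in which Drd2, Gpr6, Ppp1r1b, Adcy5 and Pde10a were at their lowest of the group. The other 5 SAH 1d libraries lay between 10.02 and 46.0 CPM.

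**Figure D1:**
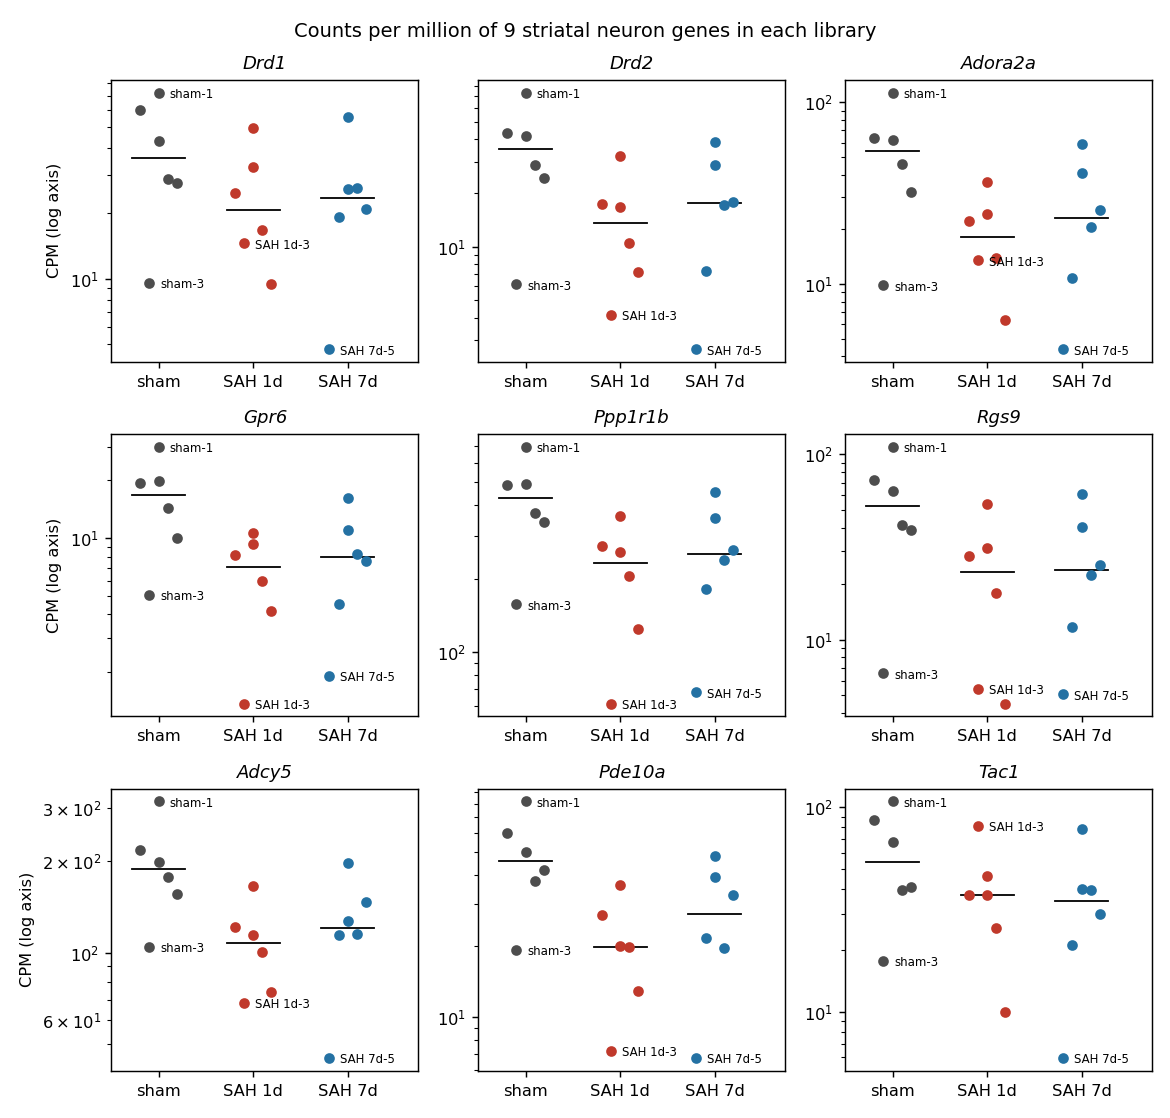
Each point is 1 library, with CPM on a log axis, the 3 groups on the horizontal axis and a black line at the group median. Sham-1 is the highest point for all 9 genes, sham-3 is the lowest sham point for all 9, and SAH 1d-3 is high for Tac1 but low for the others.

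The same libraries were high or low for nearly all of the 9 genes. Sham-1 was the highest of the 18 libraries for 9 of 9 genes, and sham-3 was the lowest of its group for 9 of 9. SAH 7d-6 was the highest and SAH 7d-5 the lowest of its group for 9 of 9, and SAH 1d-1 was the highest of its group for 8 of 9. SAH 1d-3 and SAH 1d-4 shared the lowest values of SAH 1d, for 5 and 4 genes. The sum over the 9 genes ran from 335.6 CPM in sham-3 to 1595 CPM in sham-1, and from 144.7 CPM in SAH 7d-5 to 1009 CPM in SAH 7d-6. On log2 CPM with the mean of each gene removed, 87.5% of the variance of the 9 genes lay between libraries, and 85.9% once group means were also removed. The same share was 67.7% over 23 other striatal neuron genes and 0.738% over all tested genes. Normalization keeps the mean over all genes nearly equal between libraries, and the share also depends on how many genes are averaged. The value over all tested genes is therefore low by construction and is no baseline for the 9.

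**Figure D2:**
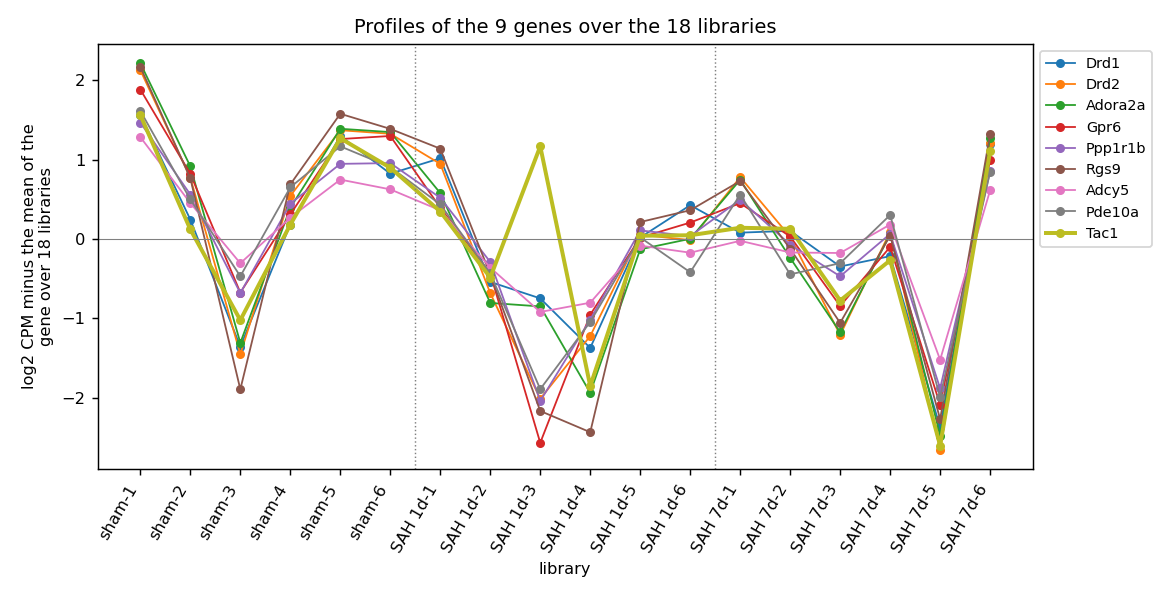
Lines join the log2 CPM of each of the 9 genes over the 18 libraries, minus the mean of that gene, and dotted lines part the groups. The lines rise and fall together, except that Tac1 in SAH 1d-3 lies 2.49 log2 units above the value given by the means of its gene and library.

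The spread between rats of 1 group was large for these genes. The SD of log2 CPM within groups had a median of 1.03 over the 9 genes, against 0.349 over all tested genes and 0.691 over the other striatal neuron genes. It was highest for Rgs9, at 1.38, with 97.8% of tested genes lower. It was lowest for Adcy5, at 0.583, with 75.9% of tested genes lower. Sham rats varied as well, with an SD of 1.42 for Rgs9, 1.22 for Drd2 and 0.528 for Adcy5, and a median over all tested genes of 0.225. The cause of the spread was not tested.

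Departures from the shared profile were few. Of 162 values, 15 lay more than 0.5 log2 units from the value that the means of gene and library give, and 7 of these were in SAH 1d-3. Departures cancel out within a library, so the high Tac1 value in SAH 1d-3 lowers those of the other genes there. Which of them would pass 0.5 with Tac1 left out of the library mean was not tested. The largest were Tac1 in SAH 1d-3 (2.49), Gpr6 in SAH 1d-3 (-1.19) and Rgs9 in SAH 1d-4 (-1.02). The CPM of Tac1 was 1.33 times that of Ppp1r1b in SAH 1d-3, whereas the ratio lay between 0.0804 and 0.180 in the other 17 libraries. Ratios to Ppp1r1b in SAH 1d-3 were also above those of the other 17 libraries for Drd1 (0.238 against at most 0.137), Adora2a (0.221 against at most 0.163) and Adcy5 (1.12 against at most 0.665). Ppp1r1b itself departed by -0.71 log2 units in SAH 1d-3, which raises every ratio to it there. Adora2a (0.48) and Adcy5 (0.41) departed by less than 0.5 in that library, where the Tac1 value in the library mean lowers both. The ratio of Drd1 to Drd2, the receptors of the direct and indirect pathways, was 3.5 in SAH 1d-3 and 0.898 to 2.65 elsewhere. Without Tac1 the share of variance between libraries was 90.9%, and without SAH 1d-3 it was 92.2%.

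SAH 1d-3 also had high summed levels of marker lists of other regions. Of the 5 dentate gyrus and hippocampus genes 4 were at their highest of the 18 libraries there, and the list summed to 38 CPM, against 16.2 to 21.7 in sham. The 6 thalamus genes summed to 189.4 CPM in SAH 1d-3, against 86.1 to 116.9 in sham. There 2 of 6 were at their highest of the 18 and 1 at its lowest. Their sum was higher still in SAH 7d-5, at 203.1 CPM, with 3 of 6 at their highest and 1 at its lowest there. The 8 hypothalamus genes summed to 9.56 CPM, against 1.58 to 5.96 in sham, but SAH 7d-3 (9.78), SAH 7d-4 (8.63), SAH 7d-2 (7.86) and SAH 1d-2 (6.73) were also above the sham range. Of these genes 6 of 8 (Oxt, Avp, Hcrt, Agrp, Pmch and Otp) were at 0 in at least 1 library. The 7 cortical interneuron genes summed to 657 CPM in SAH 1d-3, the highest of SAH 1d and within the sham range of 433.4 to 674.7. The part of these tissues in the Tac1 value was not tested.

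For SAH 1d versus sham, the question is whether the striatal genes differ at day 1, and all 9 fold changes were negative. The mean log2 CPM of the 9 genes was 5.76 ± 0.955 in sham and 4.68 ± 0.814 in SAH 1d (SD, n = 6 each), a difference of -1.08 with a pooled SD of 0.887. All 6 SAH 1d libraries lay below the sham median, and 2 of 6 lay below all sham libraries. The log2 fold changes of edgeR were -1.48 (SE 0.490) for Adora2a, -1.31 (SE 0.456) for Gpr6, -1.30 (SE 0.528) for Drd2 and -0.71 (SE 0.455) for Drd1. In the cAMP group they were -1.24 (SE 0.371) for Pde10a, -1.24 (SE 0.629) for Rgs9, -0.98 (SE 0.391) for Ppp1r1b and -0.85 (SE 0.256) for Adcy5, and Tac1 had the smallest, -0.59 (SE 0.458). Their median of -1.24 stands beside 0.01 over all tested genes. At an adjusted p under 0.05 with edgeR, 3 of the 9 genes were called (Adora2a, Adcy5 and Pde10a), all lower, where 10.5% of all tested genes were called lower. As the genes were chosen on these libraries, nothing is read from that count. It was 0 without sham-1, without sham-5 or without SAH 1d-4, and 6 without sham-3 or without SAH 1d-1. No gene separated the groups, where 5.41% of tested genes were lower in SAH 1d without overlap.

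The difference was smaller when set against general neuron genes. All 7 general neuron genes (Snap25 and Tubb3 among them) were called lower in SAH 1d than in sham by edgeR, beside 10.5% of all tested genes. Their sum ranged from 4973 to 6176 CPM against 6806 to 9817 CPM. Relative to the mean of that list, the difference in the 9 genes was -0.49 in place of -1.08. The part of neuron content in the lower values was not tested.

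For SAH 7d versus sham, all 9 fold changes were again negative, from -1.02 for Adora2a to -0.64 for Adcy5, with a median of -0.79 beside 0.00 over all tested genes. The mean of the 9 genes was 4.85 ± 1.12 log2 CPM in SAH 7d, -0.91 from sham with a pooled SD of 1.04, and 5 of 6 libraries lay below the sham median. Without SAH 7d-5 the difference was -0.52, and relative to the general neuron list it was -0.56. Of the 9 genes 0 were called by edgeR, 0 by DESeq2 and 0 at an unadjusted p under 0.05, from which, as at day 1, nothing is read. Over all genes edgeR called 0 (0.0%), with 2842 genes at an unadjusted p under 0.05 and 459 called by DESeq2. Both comparisons share the sham libraries.

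Between SAH 7d and SAH 1d the 9 genes did not move one way beyond their spread. The difference in their mean was 0.17 with a pooled SD of 0.976, and it became -0.09 when SAH 7d-6 was left out and 0.56 when SAH 7d-5 was. Relative to the general neuron list it was -0.07. The fold changes ran from -0.16 for Tac1 to 0.45 for Adora2a, and 8 of 9 were positive. None of the 9 was called by edgeR, where 1.37% of all tested genes were called, and 0 were called by DESeq2 or at an unadjusted p under 0.05, from which nothing is read either.

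The list of other striatal neuron genes holds 26 genes that are not among the 9, of which 25 are in the table and 23 were tested. Drd3 and Ido1 did not pass the filter. This list too was chosen with earlier results of these data known, so its calls are not independent support for the 9. For SAH 1d versus sham, 6 of the 23 were called lower and 0 higher by edgeR, beside 10.5% and 14.9% of all tested genes, and all 23 fold changes were negative with a median of -0.65. Sham-1 was the highest of the 18 libraries for 21 of the 25 genes, and sham-3 the lowest sham library for 22, so they varied with the same libraries as the 9. The part of that variation in the 6 calls was not tested. Without sham-3 the count was 11, without SAH 1d-1 it was also 11, and without SAH 1d-3 it was 7. Over all tested genes these fits called 3778, 4129 and 5252, against 4684 with all 12 libraries. With each of the 12 libraries left out in turn, 5 genes were called in every fit, with Chrm4, Gng7, Pde1b and Pde7b among them.

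Gng7 and Pde1b had the larger fold changes among those described. Gng7, the G protein gamma subunit paired with the striatal olfactory-type G protein, had a log2 fold change of -1.42 (SE 0.407, edgeR adjusted p = 0.0222), falling from a median of 214.9 to 94.2 CPM. Pde1b, a calcium-dependent phosphodiesterase, had a log2 fold change of -1.01 (SE 0.287, edgeR adjusted p = 0.0218), falling from a median of 198 to 101.1 CPM.

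Smaller falls were seen for a cAMP phosphodiesterase, a muscarinic receptor and an opioid precursor. Pde7b had a log2 fold change of -0.79 (SE 0.226, edgeR adjusted p = 0.0233), Chrm4 one of -0.65 (SE 0.167, adjusted p = 0.0133) and Pdyn, which makes dynorphin in the direct pathway, one of -0.62 (SE 0.206, adjusted p = 0.0419). Pdyn was not called in 8 of the 12 fits with a library left out, nor with all 18 libraries in 1 fit or by limma. Among other genes of the list, Penk, Rasd2 and Ptpn5 were not called by edgeR. Penk, which makes enkephalin in the indirect pathway, had a mean of 95.1 FPKM over the libraries and a log2 fold change of -0.90 (SE 0.448, edgeR adjusted p = 0.157). Rasd2, a small GTPase of the striatum, had -0.34 (SE 0.341, edgeR adjusted p = 0.487). Ptpn5, the striatal-enriched phosphatase, had -0.38 (SE 0.176, edgeR adjusted p = 0.130).

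At day 7 the other striatal genes did not pass the test in either comparison. For SAH 7d versus sham, 0 of 23 were called by edgeR and 0 by DESeq2, and 4 had an unadjusted p under 0.05. Over all 18444 tested genes these counts were 0, 459 and 2842, so nothing is read from the counts of the list. Of the 23 fold changes 22 were negative, with a median of -0.62. For SAH 7d versus SAH 1d, 0 of 23 were called by edgeR and 0 by DESeq2, and 0 had an unadjusted p under 0.05. Over all tested genes edgeR called 1.37%, DESeq2 called 1012 genes, and 2713 genes had an unadjusted p under 0.05. The median fold change of the list was 0.26 in this comparison. Chrm4 alone of the list was called there, higher in SAH 7d, when SAH 7d-5 was left out, where 1545 of all tested genes were called.

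**Figure D3:**
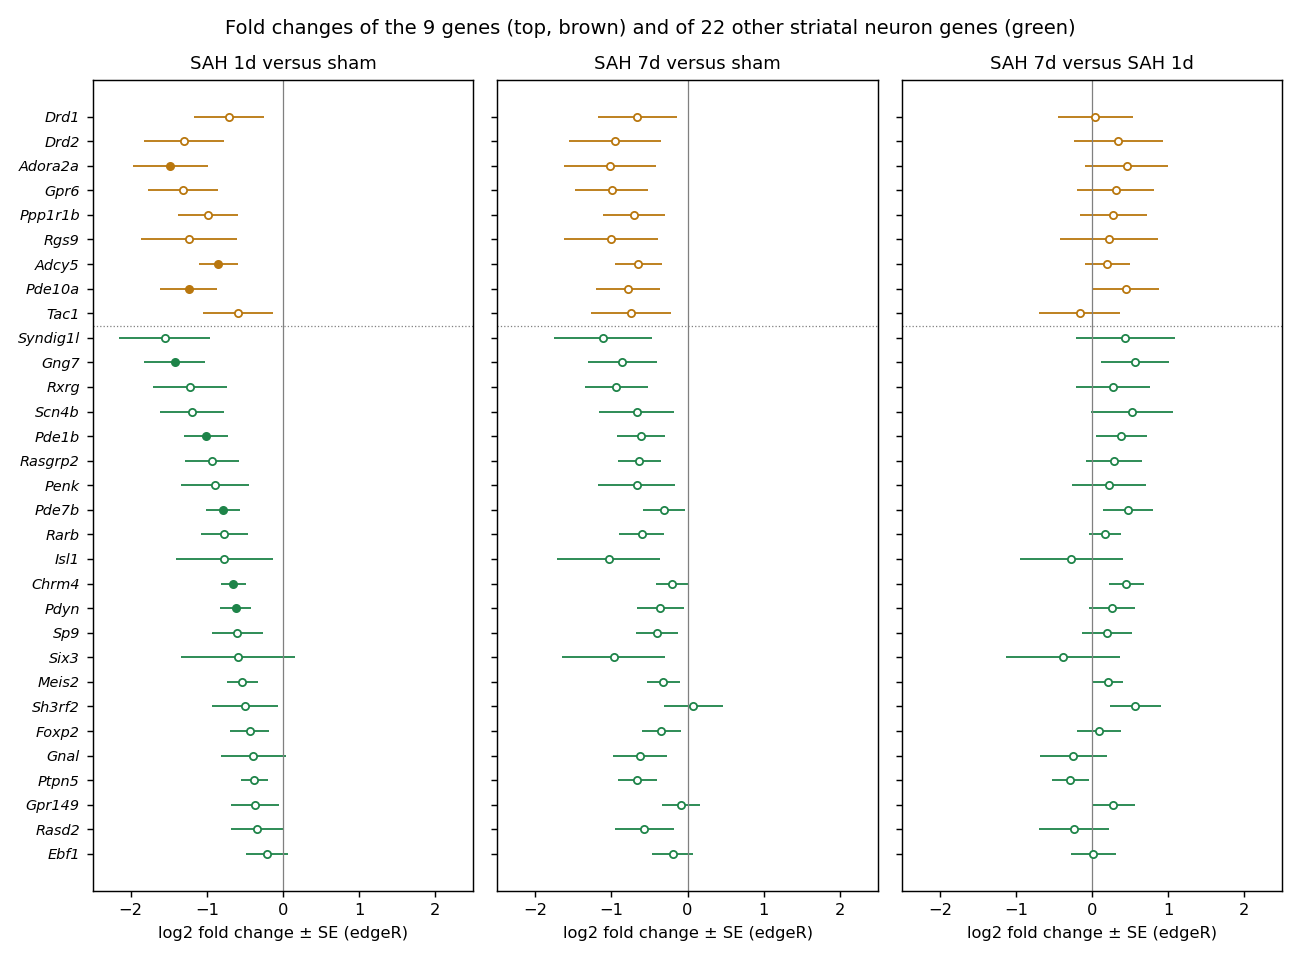
Points are edgeR log2 fold changes with their SE for the 9 genes (brown, above the dotted line) and 22 of the 23 other striatal neuron genes (green), in 3 panels for the 3 comparisons. Filled points have an adjusted p under 0.05, and all points of SAH 1d versus sham lie below 0.

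Over the 18 libraries with group means removed, each of the 9 genes followed the mean of the other 8, with Pearson's r of 0.924 to 0.980, except Tac1 at 0.748. Without SAH 1d-3 the r of Tac1 was 0.946. Each r compares values measured in the same 18 libraries, so both sides share the dissection and depth of each library, and it is a description. The genes most like the mean of the 9, of 15335 genes compared, were Lrrc10b (0.987), Syndig1l (0.985), Slc35d3 (0.960), Rxrg (0.958) and Penk (0.957). They were followed by Pde1b (0.953), Asic4 (0.951), Gng7 (0.942), Six3 (0.941) and Isl1 (0.940), so 7 of the 10 are on the list of other striatal neuron genes, which holds 23 of the 15335. An r of at least 0.8 was found for 18 of these 23 and for 71 of the 15335. As that list was chosen with earlier results of these data known, the overlap is a description and not support. Lrrc10b showed the same libraries, with 63.6 CPM in sham-1, 4.81 in sham-3 and 1.57 in SAH 7d-5. Without SAH 7d-5 and sham-1, the libraries farthest from the median, its r was 0.977. The r was lower for Ebf1, at 0.0576, than for any other gene of that list.

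Among the 5 least alike genes were Tle3 (-0.903), Cd163 (-0.867), Tbc1d1 (-0.848) and Tnfrsf11a (-0.836). Cd163, the hemoglobin scavenger receptor of macrophages, had a median of 2.21 CPM in sham and 5.66 in SAH 1d, and 13.0 CPM in SAH 7d-5. Tle3 had 42.3 CPM in sham-1, 57.6 in sham-3 and 99.9 in SAH 7d-5.

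The partners of these genes in dopamine and cAMP signalling, most of which are also used outside the striatum, had a narrow range within sham. The list has 37 tested genes, and its sum ran from 5129 CPM in sham-1 to 5910 CPM in sham-5. It ran from 4276 to 4866 CPM in SAH 1d and from 3034 CPM in SAH 7d-5 to 5366 CPM in SAH 7d-4. For SAH 1d versus sham, 12 of 37 were called lower and 0 higher by edgeR, beside 10.5% and 14.9% of all tested genes. They include Adcy2, an adenylyl cyclase (-0.52, SE 0.0772, adjusted p = 0.000668), Ppp3ca, a calcineurin subunit that acts on DARPP-32 (-0.99, SE 0.185, adjusted p = 0.00263), and Adcy3 (-0.42, SE 0.0810, adjusted p = 0.00328). In both SAH 7d comparisons 0 were called by edgeR, beside 0.0% of all tested genes against sham and 1.37% against SAH 1d. The r of this list with the 9 genes was 0.566. SAH 7d-5 was lowest in both the list and the 9 genes, and the r without it was not computed.

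Among neuron lists, the cholinergic neuron genes moved with the 9 more than cortical genes did. The 6 cholinergic genes, with Chat among them, summed to 10.3 CPM in sham-3 and 48.4 CPM in sham-1, the ends of the sham group, and their r with the 9 genes was 0.831. Lhx8 was at 0 in at least 1 library. For SAH 1d versus sham, 0 of 6 were called by edgeR, which called 10.5% of all tested genes lower and 14.9% higher. The cortical projection neuron genes had an r of 0.361, and sham-1, the library highest in the 9 genes, had their lowest sham sum (1510 CPM). Of these 11 genes 3 were called lower in SAH 1d than in sham, with Neurod6 (-1.13) and Slc17a7 (-0.56) among them. General neuron genes had an r of 0.520, GABA synthesis and release genes 0.676 (2 of 3 called lower in SAH 1d) and cortical interneuron genes 0.323 (0 of 7 called). SAH 7d-5, the library lowest in the mean of the 9 genes, was also lowest of the 18 for most genes of these lists. It was lowest for 7 of 7 general neuron, 3 of 3 GABA, 6 of 7 interneuron and 7 of 11 projection neuron genes. The r of these lists without SAH 7d-5 was not computed.

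**Figure D4:**
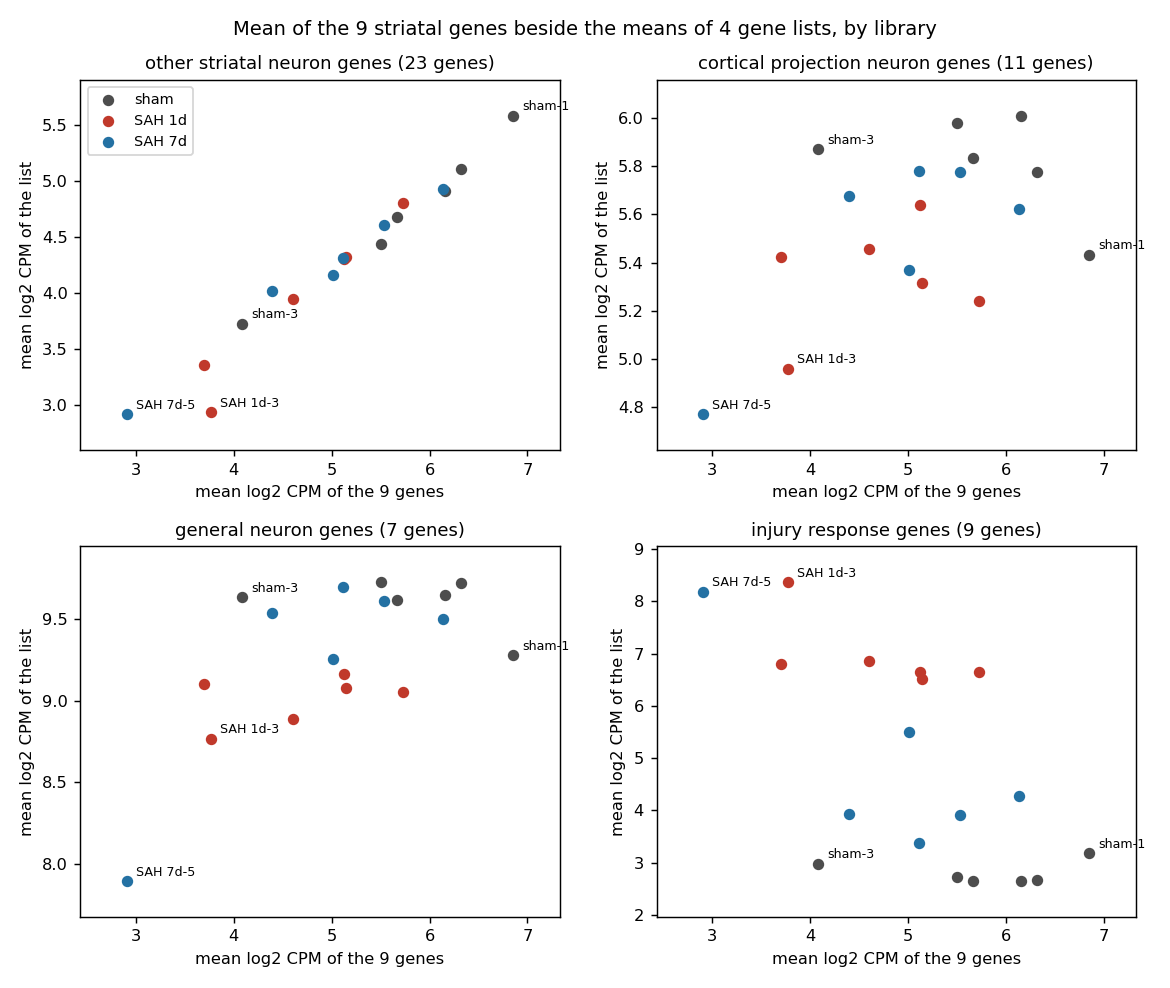
Each point is 1 library, with the mean log2 CPM of the 9 genes on the horizontal axis and that of a list on the vertical axis, in 4 panels. The other striatal genes lie along a line (r 0.978 within groups), while sham-1 and sham-3, the ends of the sham group in the 9 genes, have 9.28 and 9.64 for general neuron genes.

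Glia and injury lists were set beside the 9 genes too. Sham-1 was the highest sham library for 5 of 5 oligodendrocyte and 5 of 5 astrocyte genes, with sums of 17840 and 3273 CPM, and for 4 of 5 microglia genes. For SAH 1d versus sham, 0 of 5 oligodendrocyte genes, 1 of 5 astrocyte genes (Aldh1l1, lower) and 1 of 5 microglia genes (P2ry12, lower) were called by edgeR. All 9 injury response genes were called higher, with an r with the 9 striatal genes of -0.589, and 3 of 7 immediate early genes were higher (Npas4, Fos and Fosb). Over all tested genes 10.5% were called lower and 14.9% higher. SAH 7d-5 had the highest injury sum (15600 CPM) and the lowest mean of the 9 genes, and the r without it was not computed. In sham the injury list ran only from 376.9 to 702.2 CPM, with 702.2 in sham-1, the library highest in the striatal genes.

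For neighbouring tissues, 6 of 9 choroid plexus genes were called higher in SAH 1d than in sham, beside 14.9% of all tested genes. Their sum was 1145 CPM in SAH 1d-6 and 792.9 in SAH 1d-4, and between 32.4 and 64.9 in the rest of SAH 1d. SAH 1d-4 also had the lowest mean of the 9 striatal genes in its group. The r of the choroid plexus list with the 9 genes was -0.120. Sostdc1, Otx2, Kl and Folr1 of that list were at 0 in at least 1 library. Of the thalamus genes 2 of 6 were called higher (Rgs16 and Prkcd), and of the hippocampus genes 1 of 4 lower (Fibcd1), where 10.5% of all tested genes were lower. None of the 5 hypothalamus, 2 midbrain dopamine neuron, 3 ependyma, 4 endothelial and 4 red cell genes tested was called by edgeR in that comparison. At SAH 7d versus sham 0 genes of these 20 lists were called, where edgeR called 0 of all tested genes. Between SAH 7d and SAH 1d, Tmem119 of microglia was called higher, and Kcne2 of choroid plexus and Hspb1 of the injury list lower. There 1.37% of all tested genes were called. The part of these tissues in the levels of the striatal genes was not tested.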

How the data were processed

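Counts and FPKM were examined for 18 rat cortex libraries in 3 groups of 6. The authors had adapters and low-quality reads removed and the clean reads aligned to Rnor_6.0. The count table was deposited without normalization, in whole numbers. The FPKM table of the authors scales the same genes by transcript length and by 1e+06 mapped reads. The submitters' processing notes name fastp, HISAT2 and DESeq2 1.16.1, without a role. They also name the mouse build mm9, whereas the genes carry rat identifiers. The counting program is not given in the sources used here. Whether a read pair gave 1 count or 2 is unknown, so precision was taken from the spread between libraries. Total counts range from 27.3 to 38.3 in units of 1e+06. Replicates were not pooled, and libraries were assigned by the column names, which equal the deposited descriptions.

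Of 30735 genes, 18444 passed filterByExpr of edgeR 4.0.16 in R 4.3.3 on the 18 libraries. After TMM normalization the two-sided quasi-likelihood F test was fitted over all genes on the 12 libraries of each comparison, with Benjamini-Hochberg adjustment. A gene was called at an adjusted p under 0.05. A SE is the fold change divided by the square root of F. Levels are CPM, and log2 CPM has a prior count of 2. Marker lists were scored by their mean log2 CPM. Fits were tested on simulated data. Alternatives used DESeq2 1.42.0, limma 3.58.1 on log2(FPKM + 1) and log2(FPKM + 0.1), other filters, all 18 libraries, the replicate number as a block, and each library left out. Figures were drawn with matplotlib 3.10.9 in Python 3.11.15.

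The members, the 20 other gene lists and the tests were chosen with earlier results of these data known. The values of the 9 genes are therefore a description, and counts of them past a threshold are read as no test. Calls in the other lists were made with the same knowledge and are not independent support for the 9. The rule for names took the 9 genes, the called genes and the 6 of highest mean FPKM among other striatal neuron genes, and the 10 most alike and 5 least alike genes. From each other list it took at most 3 called genes. The values of 3 genes that this rule names are not reported here.

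Whether equal replicate numbers pair the libraries was checked by correlating their deviations from the group means. The correlations range from -0.252 to 0.197, so the numbers were not taken to pair the libraries.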

Additional observations from a re-analysis of the deposited data

Results flagged for a closer look

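In 33 groups of 6 libraries, covering each of the 9 striatal genes and their marker scores, the gap of the lowest and of the highest library was compared with the range of its group. A gap to the nearest library, as a share of the range, above Dixon's critical value for 6 samples marks a library far from the others, and chance marks about 1 in 20 groups. Rgs9 in sham-3 stood apart, at a log2 CPM of 2.73, with a gap of 0.635. Adcy5 in SAH 7d-5 stood apart as well, at a log2 CPM of 5.49, with a gap of 0.63. Both were the lowest values of their group, and no cause was tested.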

How the results depend on the processing

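For SAH 1d versus sham, 6 other striatal neuron genes were called by edgeR. The count was 10 with the DESeq2 Wald test, 3 with all 18 libraries in 1 fit and 1 with limma on log2(FPKM + 1) without a filter. Over all tested genes edgeR called 4684, and these alternatives called 5596, 2462 and 4394, the last of 26746 genes in place of 18444. With each library left out in turn it ranged from 5 to 11. It was 11 without sham-3, and 11 without SAH 1d-1, with 3778 and 4129 calls over all tested genes. With the mean of the 9 genes as a covariate, chosen after seeing the data, it was 2, with 1 lower and 1 (Six3) higher, and the calls over all tested genes fell from 4684 to 1788. That mean differs between the groups, so the covariate takes up part of the group difference. The replicate block gave 14, with 3979 calls over all tested genes. Of the 9 genes themselves, 3 were called, against 7 with that block and 0 both with all 18 libraries in 1 fit and with limma without a filter. Nothing is read from these counts of the 9. The replicate numbers do not pair the libraries, and most libraries did not correlate best with their own number. For SAH 7d versus SAH 1d, the count was 0 and ranged from 0 to 1 with a library left out. Leaving out SAH 7d-5 gave 1, and leaving out both SAH 1d-3 and SAH 7d-5 gave 1, each time Chrm4, higher in SAH 7d. Over all tested genes the calls there rose from 252 to 1545 and 2512. For SAH 7d versus sham it was 0 under the 23 alternatives run. The cause of these shifts was not tested.

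The difference in the mean of the 9 genes between SAH 1d and sham ranged from -1.42 without sham-3 to -0.87 without sham-1. The difference between SAH 7d and sham ranged from -1.25 without sham-3 to -0.52 when SAH 7d-5 was left out. The difference between SAH 7d and SAH 1d ranged from -0.09 when SAH 7d-6 was left out to 0.56 when SAH 7d-5 was left out. The lowest count of any of the 9 genes in a library is 54 (Gpr6 in SAH 1d-3), and the precision that depth gives was not tested.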
